A study of Mus musculus with 16 samples.

Results

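Genes that mark the primitive endoderm and the endoderm layers derived from it or formed after it were followed through Spen loss and differentiation of mouse embryonic stem cells (ESCs). The 10 genes, Gata6, Gata4, Sox17, Sox7, Foxa2, Pdgfra, Dab2, Lama1, Cubn and Sparc, were chosen by symbol, with no threshold on their values, and were found among the 55421 genes of the deposited count files by matching Ensembl identifiers to GENCODE release M21. RNA-seq was available for 16 libraries, 2 biological replicates in each of 8 groups. All cells were female F1 hybrid ESCs (129/Sv x Cast/Ei) whose endogenous Xist promoter on the Cast X chromosome responds to doxycycline (dox), and they were either wild type (Wt) or lacked the complete Spen open reading frame on both alleles (Spen-/-), which encodes a transcriptional corepressor. Each genotype was sampled undifferentiated (day 0) without dox, at day 0 with dox at 2 µg/mL for 4 days, at day 3 of monolayer differentiation without dox, and at day 7 of differentiation with dox. For day 7 the dox was also at 2 µg/mL and had been started 4 days before day 0. Dox-treated cells were sorted for dsRed, so dox and sorting cannot be told apart, and because day 3 was sampled only without dox and day 7 only with it, each was compared with the matching day 0 group. ESCs were grown on irradiated male fibroblast feeders, which were depleted by plating before differentiation. Whether the replicates were separate clones was not given in the sources used here, so p-values measure the spread between these libraries.

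The primitive endoderm forms beside the naive epiblast in the blastocyst, where FGF4 from epiblast precursors acts on neighbouring cells and the zinc finger factor GATA6 opposes NANOG. GATA4, SOX17 and SOX7 follow GATA6, PDGFRA marks the committed cells at their surface, and DAB2 sorts endocytic cargo and is needed for these cells to line the cavity. The layer then gives parietal endoderm, which secretes a thick basement membrane containing laminin alpha 1 (Lama1) and SPARC, and visceral endoderm, which takes up maternal nutrients through cubilin (Cubn). FOXA2, SOX17 and GATA6 are used again by definitive endoderm at gastrulation, and PDGFRA and GATA factors also by mesoderm, so none of these genes marks a single cell type.

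Promoter sequence is shown for 4 genes, Pdgfra, Foxa2, Dab2 and Cubn, which at day 7 were higher in both Wt libraries than in both Spen-/- libraries and had a window in the tables used here, because their promoters are where such a difference could be looked for in sequence. The windows are the 250 bases before a RefSeq start on GRCm38.p6, written 5′ to 3′ on the coding strand, with matches to factor words in capitals. Pdgfra has 1 start on the plus strand (chr5:75152001-75152250, upstream of the gene as annotated by GENCODE), Foxa2 is shown for its most upstream start (chr2:148046970-148047219, minus strand) and for an internal start that lies in an intron of its longer transcripts (chr2:148045465-148045714), Dab2 for its upstream start (chr15:6299539-6299788, plus strand) and Cubn for its 1 start (chr2:13491877-13492126, minus strand).
Pdgfra: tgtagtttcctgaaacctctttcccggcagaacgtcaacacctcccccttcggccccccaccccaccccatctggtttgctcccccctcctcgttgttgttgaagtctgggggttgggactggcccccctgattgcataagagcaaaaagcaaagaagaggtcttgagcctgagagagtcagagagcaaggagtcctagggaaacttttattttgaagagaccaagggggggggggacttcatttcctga
Foxa2, upstream start: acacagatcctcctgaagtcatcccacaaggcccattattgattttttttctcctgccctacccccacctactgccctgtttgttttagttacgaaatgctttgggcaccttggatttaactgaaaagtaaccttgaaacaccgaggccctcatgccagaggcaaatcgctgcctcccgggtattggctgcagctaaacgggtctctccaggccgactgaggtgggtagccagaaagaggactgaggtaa
Foxa2, internal start: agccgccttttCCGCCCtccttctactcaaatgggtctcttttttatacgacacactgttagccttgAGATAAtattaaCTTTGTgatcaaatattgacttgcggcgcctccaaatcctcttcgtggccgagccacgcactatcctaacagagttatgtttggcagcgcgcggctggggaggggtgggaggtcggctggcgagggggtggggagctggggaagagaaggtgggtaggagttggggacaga
Dab2, upstream start: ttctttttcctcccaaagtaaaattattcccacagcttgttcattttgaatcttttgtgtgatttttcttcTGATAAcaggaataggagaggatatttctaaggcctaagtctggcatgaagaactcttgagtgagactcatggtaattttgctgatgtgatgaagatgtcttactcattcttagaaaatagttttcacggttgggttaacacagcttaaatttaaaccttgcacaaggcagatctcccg
Cubn: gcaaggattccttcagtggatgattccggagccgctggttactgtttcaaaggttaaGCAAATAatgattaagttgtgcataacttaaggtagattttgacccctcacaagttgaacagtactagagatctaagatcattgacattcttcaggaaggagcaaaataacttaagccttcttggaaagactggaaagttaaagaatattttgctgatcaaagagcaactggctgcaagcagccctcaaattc
For GATA factors the words searched, on both strands, were AGATAA, then AGATAG, then TGATAA and finally TGATAG. For SOX factors they were ACAAAG, then ACAATG, then ACAAAT and finally ACAATA. For forkhead factors they were TGTTTAC, then TGTTTGC, then TATTTAC and finally TATTTGC, and for Sp1 the word was GGGCGG, the GC box. A GATA word stood at -183 of the internal Foxa2 start, upstream of a SOX word at -171, and a GC box stood at -239 of the same window. The upstream Dab2 window held a GATA word at -179, the Cubn window held a forkhead word at -193, and the Pdgfra and upstream Foxa2 windows held none of the words. Of the windows not printed, a further Foxa2 window (chr2:148045949-148046198) held 2 GC boxes, and a second Dab2 window (chr15:6386498-6386747) and the Sparc window held no match. Of all 32851 windows of this length, 26.5% held a GATA word, 37.2% a SOX word, 11.9% a forkhead word and 32.7% a GC box, so single matches are common and carry no reading about binding. RefSeq windows were matched for 5 of the 10 genes.

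Libraries held 7571566 to 14822867 reads on genes. Levels are given as CPM (counts of a gene scaled by TMM to a library of common size), and changes as log2 fold changes with SE from edgeR's quasi-likelihood test in 1 fit of all 16 libraries, with p adjusted by Benjamini-Hochberg over 18150 genes. Spen itself was at 16.2 to 43.5 CPM in the 8 Wt libraries and at 0.129 to 5.45 CPM in the 8 Spen-/- libraries, so no library went against its label. The Spen-/- day 7 libraries stood apart, with 14969 and 15324 genes with a read against 16952 to 23458 in the other 14, and with 2 libraries a group an exact permutation test of a single gene cannot go below p = 0.333. All 10 genes passed the filter on low counts. Most were low and uneven between replicates, and fewer cells of a type cannot be told apart from less RNA per cell in such bulk samples.

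**Figure D1:**
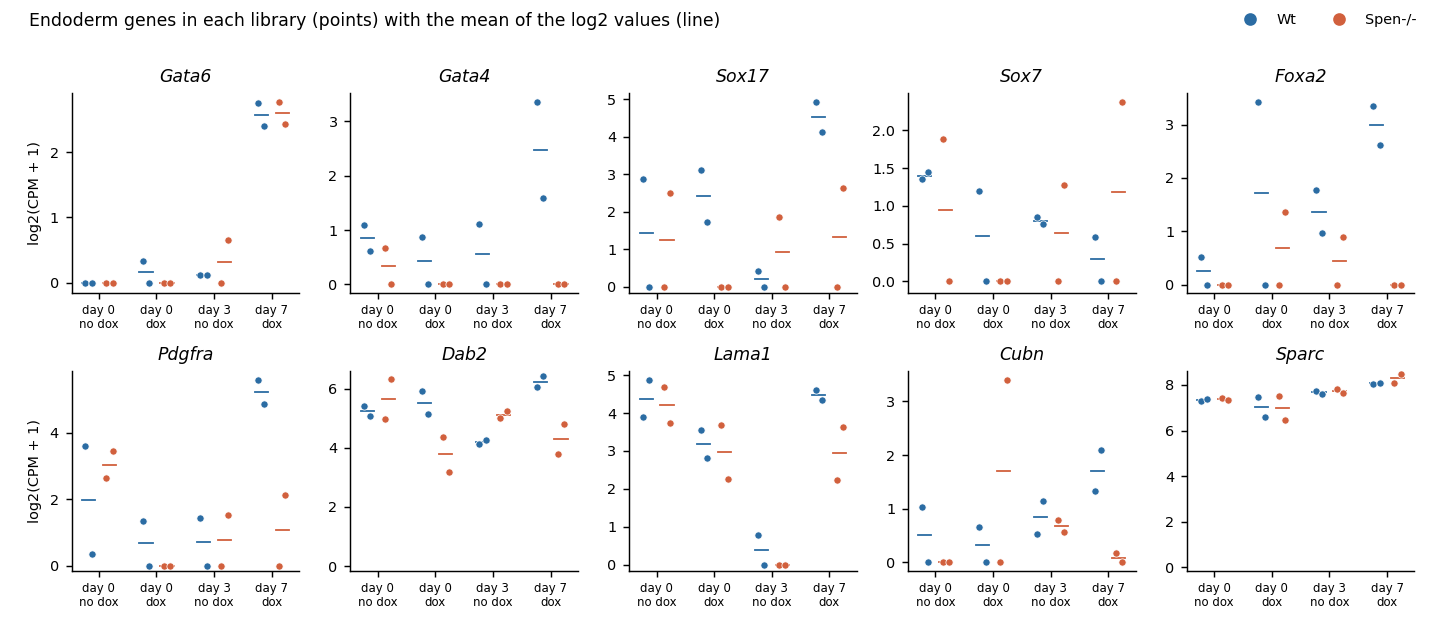
Level of each of the 10 genes, as log2(CPM + 1), in every library (points; lines are means of the log2 values) by day and dox, Wt in blue and Spen-/- in orange, with a separate vertical scale per gene. Gata6 is near 0 until day 7 in both genotypes, Gata4 and Foxa2 are seen at day 7 in Wt libraries and are at 0 in both Spen-/- libraries, and Lama1 drops out at day 3.

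Gata6, the zinc finger factor that starts the primitive endoderm programme, appeared at day 7 in both genotypes, at overlapping levels. It had 0 reads in the day 0 libraries, except for 4 reads in 1 Wt library with dox, and never more than 0.570 CPM up to day 3. At day 7 it reached 5.72 and 4.26 CPM in Wt and 5.79 and 4.42 CPM in Spen-/- libraries. The 4 day 7 libraries all lay above the 4 dox-treated day 0 libraries, 52.6-fold in pooled CPM, and the mean day 7 change over both genotypes passed the threshold (adjusted p = 0.0204, edgeR). Neither genotype passed alone, with adjusted p = 0.216 in Wt and 0.0687 in Spen-/- cells. The 2 genotypes overlapped at day 7 and the Spen-/- to Wt ratio was 1.01. Of the 8 genes of the trophectoderm list, 4 were also called higher for the mean day 7 change, against 14.4% of all genes called in either direction. The summed level of the list went from 68.8 to 102 CPM in the dox-treated day 0 libraries to 351 to 604 CPM at day 7. Its factors Cdx2 and Elf5 were not detected in either Spen-/- library at day 7. The part of trophectoderm cells in the Gata6 level was not tested. The call for the mean change rests on few libraries, since it was lost when any of 5 of the 8 was left out (adjusted p 0.0561 to 0.0635).

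Gata4, a second GATA factor of extraembryonic endoderm and heart, had a different pattern. It was found at 9.18 and 1.99 CPM in the Wt libraries at day 7, which is 109 and 22 reads, and at 0 reads in both Spen-/- libraries. At day 0 and day 3 no library exceeded 1.15 CPM. Against the 3-read floor over both Spen-/- libraries, Gata4 was at least 31.2-fold lower than in Wt cells. The difference did not pass the threshold (adjusted p = 0.161, edgeR), and the Wt replicates themselves differed widely (5.58 ± 5.08 CPM, SD, n = 2). Over all 4 conditions Gata4 was seen in 6 of 8 Wt and 1 of 8 Spen-/- libraries, a count that was not tested. Other low members also had reads in more Wt libraries. Sox17 and Sox7 were each seen in 6 Wt and 3 Spen-/- libraries, Foxa2 in 6 and 2, and Pdgfra and Cubn in 6 and 4. Fewer genes of any kind had a read in Spen-/- cells before day 7 too, for example 17823 and 17450 against 23458 and 19460 at day 0 with dox. The mean log2 fold change of Gata4 over the 4 conditions was -5.23 (adjusted p = 0.0805, edgeR).

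Sox17, an HMG-box factor shared by primitive and definitive endoderm, was at 29.2 and 16.4 CPM in Wt cells at day 7 and at 0 and 5.23 CPM in Spen-/- cells. Every Wt day 7 library was above every other library of the series, of which the next was a dox-treated Wt day 0 library at 7.67 CPM. Foxa2, a forkhead pioneer factor of definitive endoderm and node, was at 9.18 and 5.17 CPM in Wt and at 0 reads in both Spen-/- libraries at day 7, at least 39.6-fold lower (adjusted p = 0.169, edgeR). One dox-treated Wt library at day 0 held as much Foxa2 as the Wt day 7 libraries, 9.67 CPM, while its replicate held none. Sox7, which acts with SOX17 in extraembryonic endoderm and in blood vessels, did not follow these genes. It stayed between 0 and 4.18 CPM in all 16 libraries, and its highest value was in a Spen-/- day 7 library whose replicate had none.

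Pdgfra, the receptor for PDGF ligands on committed primitive endoderm and on mesoderm, was found at day 7 mainly in Wt cells. Wt day 7 libraries held 47.0 and 28.2 CPM, and Spen-/- libraries 0 and 3.37 CPM. In pooled CPM Wt day 7 cells were 39.6-fold above dox-treated Wt cells at day 0 and 21.4-fold above Spen-/- cells at day 7. Groups did not overlap in either comparison, yet neither passed the threshold, and the mean day 7 change over both genotypes had adjusted p = 0.0879 (edgeR). Before differentiation Pdgfra was patchy, with 11.1 and 0.264 CPM in Wt and 5.25 and 9.95 CPM in Spen-/- cells without dox. With dox it was at 1.55 and 0 CPM in Wt cells and at 0 in both Spen-/- libraries.

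Fibroblast and Y-linked reads were present at day 0 beside these values. Without dox the Y-linked reads went against Pdgfra between the Wt libraries and with it between the Spen-/- libraries. The Wt library with 0.264 CPM of Pdgfra had a summed Y-linked level of 15.9 CPM, and its replicate with 11.1 CPM had 8.52 CPM. The Spen-/- library with 5.25 CPM of Pdgfra had 3.62 CPM, and its replicate with 9.95 CPM had 18.1 CPM. The summed fibroblast markers had the same order as Pdgfra in these 4 libraries. From the lowest Pdgfra to the highest they stood at 104, 219, 235 and 256 CPM. The Y-linked transcripts Ddx3y and Eif2s3y, which female ESCs lack, reached 9.67 and 15.7 CPM at day 0 and stayed at or under 0.533 CPM at days 3 and 7. Over the 4 Y-linked genes the summed level was 3.62 to 18.1 CPM without dox and 0.129 to 5.78 CPM with dox at day 0. Col1a2, a fibroblast collagen, was at 45.6 and 13.0 CPM in Wt and 44.1 and 31.5 CPM in Spen-/- cells at day 0 without dox, and at 1.04 to 6.96 CPM with dox. The summed level of the 14 fibroblast markers was 104 to 256 CPM without dox and 61.9 to 139 CPM with dox at day 0, 136 to 207 CPM at day 3 and 115 to 243 CPM at day 7, with a read for 12 to 14, 9 to 13, 10 to 13 and 6 to 11 of the 14. The part of feeder RNA in the day 0 levels of Pdgfra, Dab2, Lama1 and Sparc was not tested.

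Dab2, the endocytic adaptor, was detected in all 16 libraries and was the member nearest to a genotype call. At day 7 Wt libraries held 64.9 and 84.8 CPM and Spen-/- libraries 12.7 and 27.1 CPM. Dab2 was thus 3.68-fold lower in pooled CPM without Spen, a log2 fold change of -1.91 (SE 0.564) with adjusted p = 0.0654 (edgeR). It also stood lower in Spen-/- cells at day 0 with dox, at 19.7 and 8.15 CPM against 59.0 and 34.2 CPM (log2 fold change -1.75, adjusted p = 0.325), so a gap of similar size stood before differentiation, and the day 7 change in Spen-/- minus that in Wt cells was -0.16 (SE 0.777) on the log2 scale. Without dox the order was different. At day 0 the groups overlapped, with 42.0 and 32.6 CPM in Wt and 30.2 and 78.2 CPM in Spen-/- cells. At day 3 Spen-/- libraries stood higher, at 30.7 and 37.0 CPM against 16.5 and 18.1 CPM.

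Cubn, the uptake receptor of visceral endoderm, was at the edge of detection. Wt day 7 libraries held 18 and 36 reads (1.52 and 3.26 CPM) and Spen-/- libraries 1 and 0 reads. Its highest level was 9.49 CPM, 85 reads in a single dox-treated Spen-/- library at day 0 whose replicate had none. Amn, which encodes the membrane partner of cubilin, was between 0 and 21.4 CPM and highest at day 0. No group of libraries other than Wt day 7 had more than 5 Cubn reads in both replicates.

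Lama1, which encodes the laminin alpha chain of embryonic basement membranes, had the lowest adjusted p of the 10 genes on differentiation, and it went down. It stood at 13.8 and 28.0 CPM in Wt and 24.9 and 12.3 CPM in Spen-/- cells at day 0 without dox. At day 3 it had 8 and 0 reads in Wt libraries and 0 reads in both Spen-/- libraries. Lama1 fell in Spen-/- cells, by at least 127-fold against the floor of 3 reads (adjusted p = 0.0226, edgeR), and over the mean of both genotypes (103-fold in pooled CPM, adjusted p = 0.00239). In Wt cells alone it was 55.2-fold lower, with adjusted p = 0.0630. The Spen-/- call was lost without either day 3 replicate (adjusted p = 0.194 and 0.191) or day 0 replicate 2 (0.0507), whereas the call for the mean was kept with each library left out. At day 7 Lama1 was back at 23.2 and 19.1 CPM in Wt and at 3.73 and 11.4 CPM in Spen-/- cells. The Spen-/- level was 2.74-fold lower at day 7 and did not overlap the Wt level, without passing the threshold.

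Sparc, a secreted glycoprotein that binds collagen and calcium in parietal endoderm and in many other cells, was by far the most abundant member and rose by a small factor. At day 0 with dox it stood at 176 and 95.9 CPM in Wt and 179 and 86.5 CPM in Spen-/- cells. At day 7 it reached 266 and 268 CPM in Wt and 269 and 362 CPM in Spen-/- cells. The mean day 7 change over both genotypes was 1.11 on the log2 scale (SE 0.235, adjusted p = 0.00865, edgeR), and all 4 day 7 libraries lay above all 4 day 0 libraries. Sparc rose in Spen-/- cells (log2 fold change 1.25, SE 0.334, adjusted p = 0.0407), where the call was lost without day 0 dox replicate 2 (0.80, adjusted p = 0.219) or day 7 replicate 2 (1.02, adjusted p = 0.141). In Wt cells the change of 0.97 (SE 0.332) had adjusted p = 0.138. The 2 day 0 replicates with dox differed from each other almost as much as day 7 differed from day 0. At day 3 all 4 libraries, at 194 to 222 CPM, were above the 4 day 0 libraries without dox, at 156 to 170 CPM, but the change did not pass the threshold.

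Per kilobase of exon, which allows levels to be compared between genes, Sparc led in all 8 groups, with 35.1 to 83.3 CPM per kb, followed by Dab2 with 1.90 to 10.2. In Wt cells at day 7 the order below them was Sox17 at 4.78 ± 1.90, Pdgfra at 3.75 ± 1.33, Foxa2 at 3.03 ± 1.20, Lama1 at 2.19 ± 0.30 and Gata4 at 1.43 ± 1.30 CPM per kb (SD, n = 2), and these neighbours did not differ beyond their spread. Gata6 followed at 0.767 ± 0.159, and Cubn and Sox7 were at 0.160 and 0.0765 CPM per kb. In Spen-/- cells at day 7 Gata6, at 0.784 ± 0.149, and Lama1, at 0.781 ± 0.560 CPM per kb, stood at a similar level, and Gata4 and Foxa2 were not detected.

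**Figure D2:**
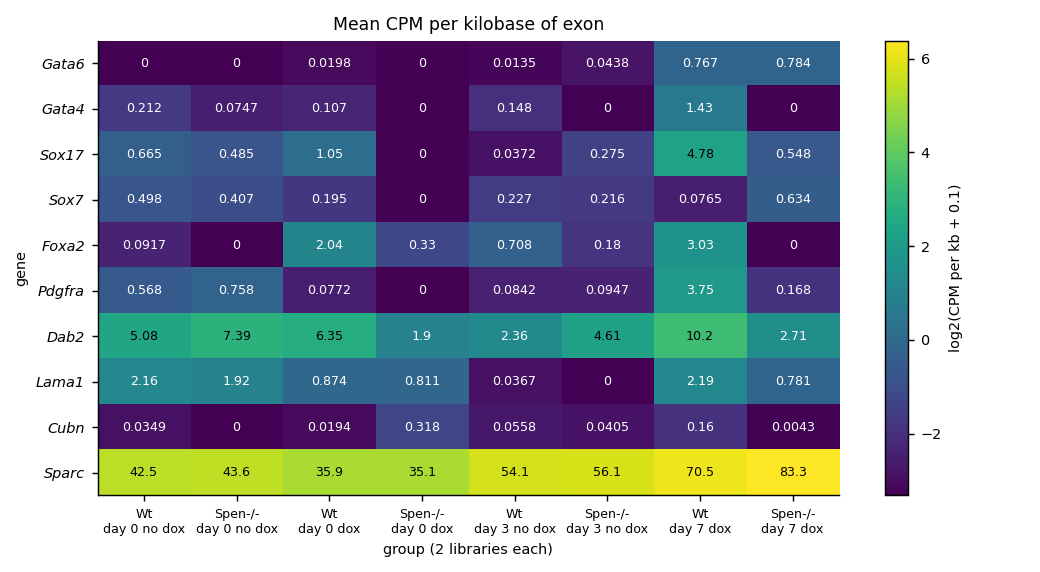
Mean CPM per kilobase of exon of each gene (rows) in each of the 8 groups (columns), printed in the cells and coloured on a log2(CPM per kb + 0.1) scale. Sparc is the brightest row throughout, and the Wt day 7 column holds higher levels of Sox17, Foxa2, Pdgfra and Gata4 than the Spen-/- day 7 column beside it.

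Counted over the 10 genes, more of them stood above the day 0 range at day 7 in Wt than in Spen-/- cells, and few were called. In Wt cells 8 of the 10 were higher in both day 7 libraries than in both dox-treated day 0 libraries, against 29.3% of all genes tested, and none was lower, against 28.6%. The exceptions were Sox7 and Foxa2. None of the 10 passed the test in Wt cells, where 4.57% of genes were called (Gata6 and Sparc, 2 of the 10, had an unadjusted p under 0.05, against 16.9% of genes, and DESeq2 also called 0 of the 10, against 12.3% of the genes it tested). In Spen-/- cells 2 of the 10, Gata6 and Sparc, were higher without overlap, against 16.5% of all genes, none was lower, against 24.3%, and 1 was called, against 8.33%. Taking both genotypes together, 2 of the 10 (Gata6 and Sparc) were called, both higher, against 14.4% of all genes, and the same 2 had all 4 day 7 libraries above all 4 day 0 libraries, against 6.56% of genes, with none lower, against 7.30%. The median log2 fold change of the 10 was 1.75 in Wt and 0.88 in Spen-/- cells, beside 0.00 and -0.05 over all genes. For none of the 10 did the day 7 change differ between genotypes by the interaction test, which called 2.01% of genes. Cubn had the lowest unadjusted p (0.0322, adjusted p = 0.307).

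Between genotypes at day 7, Gata4, Sox17, Foxa2, Pdgfra, Dab2, Lama1 and Cubn were lower in both Spen-/- libraries than in both Wt libraries, that is 7 of 10 against 33.2% of all genes, and Sparc was higher, against 19.6%. None of the 10 was called, while 7.11% of genes were. Dab2, Gata4 and Foxa2 had an unadjusted p under 0.05, 3 of 10 against 23.5% of all genes, and DESeq2 called 1 of the 10, Dab2 (adjusted p = 0.00782), against 18.4% of the genes it tested. The median log2 fold change of the 10 was -2.51, beside -0.14 over all genes. The low number of genes with a read in the Spen-/- day 7 libraries moved with this comparison, and its part in the zeros was not tested.

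At day 0 without dox the median log2 fold change of the 10 between genotypes was -0.23, beside -0.02 over all genes. With dox it was -3.09, beside -0.09, a value that rested largely on 1 library. Gata6, Gata4, Sox7 and Pdgfra had reads in Wt replicate 1 alone among the dox-treated day 0 libraries. That library had a read for 10 of the 10 genes and its replicate for 4, against 3 and 5 in Spen-/- libraries. It also had the most genes with a read (23458). The median with dox thus does not show a genotype gap as large as at day 7. Without dox none of the 10 was higher or lower without overlap, against 12.2% and 14.4% of genes, and edgeR called 0 of 18150 genes (828, or 4.56%, had an unadjusted p under 0.05, and none of the 10 was among them). DESeq2 called 56 genes there, 0.371% of those it tested, and none of the 10. With dox Sox17 and Dab2 were lower in Spen-/- cells without overlap, 2 of 10 against 24.6% of all genes, which is near the background, none was higher, against 16.6%, and none was called, where 0.0826% of genes were. At day 3 Dab2 was higher and Foxa2 lower in Spen-/- cells, 1 gene each against 20.9% and 24.3%, and edgeR again called 0 genes of the whole table (585, or 3.22%, had an unadjusted p under 0.05, Lama1 among them), where DESeq2 called 15. Over the mean of 4 conditions 4.91% of genes and none of the 10 were called.

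Differentiation to day 3 moved few of the 10. In Wt cells Gata6, Foxa2 and Sparc were higher and Sox7, Dab2 and Lama1 lower without overlap, against 28.1% and 23.5% of all genes, and none was called, where 1.38% of genes were. In Spen-/- cells Cubn and Sparc were higher and Pdgfra and Lama1 lower, against 24.6% and 21.8%, and Lama1 was called, against 1.23% of all genes. The Gata6 change in Wt cells is 1 read in each day 3 library, and the Cubn change in Spen-/- cells is 7 and 5 reads, both from 0. For the mean of both genotypes Lama1 alone was called, against 6.34% of all genes. It was also the only one of the 10 lower in all 4 day 3 libraries, against 8.82%, and Sparc the only one higher, against 9.72%. The day 3 change differed between genotypes for 0 genes by edgeR (622, or 3.43%, had an unadjusted p under 0.05, with none of the 10 among them), and for 7 by DESeq2. Dox at day 0, averaged over genotypes, left Lama1 lower without overlap (8.44 against 19.3 CPM pooled, against 3.01% of genes) and called none of the 10, where 0.496% of genes were called.

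Other genes of the same layers help to place these values. Among 15 genes of parietal endoderm and basement membrane, 2 were called higher and 1 lower (Srgn) in Wt cells at day 7, against 4.57% of all genes called, 3 higher in Spen-/- cells, against 8.33%, and 4 higher over the mean, against 14.4%. The type IV collagen gene Col4a1 was at 94.5 and 52.7 CPM in Wt and 17.5 and 58.5 CPM in Spen-/- cells at day 7, from 2.59 to 18.1 CPM at day 0 with dox (mean log2 fold change 2.87, adjusted p = 0.00269, edgeR). Col4a2, its partner chain, changed by 4.23 (adjusted p = 0.00812). The keratin gene Krt19 was already at 287 to 503 CPM at day 3, from 24.3 to 31.9 CPM at day 0, and was called higher in every comparison of day 3 or day 7 with day 0. Serpinh1, the collagen chaperone, reached 981 and 1092 CPM in Wt against 298 and 402 CPM in Spen-/- cells at day 7 (log2 fold change -1.57, adjusted p = 0.0426). Within genotypes the calls fell on different members. Col4a1 and Col4a2 were called in Spen-/- cells (3.70 and 4.90) and had adjusted p = 0.121 and 0.132 in Wt cells (2.04 and 3.57). Serpinh1 was called in Wt cells (2.55) and had adjusted p = 0.111 in Spen-/- cells (1.16). None of these 3 changes was called as different between genotypes. Snai1, an epithelial to mesenchymal transition factor, was at 22.3 and 20.5 CPM in Wt and at 0 in Spen-/- cells (adjusted p = 0.0134), and Thbd was called lower and Srgn higher.

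Visceral endoderm genes did not move together. The summed level of the 18 genes was 172 to 459 CPM over the 16 libraries and 340 to 396 CPM at day 7. The day 7 sums were alike, but a read was found for 15 and 12 of the 18 genes in Wt and 7 and 5 in Spen-/- libraries. Cer1 and Foxa1, which are on this list and on the definitive endoderm list, were not detected in either Spen-/- library at day 7. Of the 15 genes of this list tested of 18, Cited1, Stra6 and Lrp2 were called higher over the mean at day 7 and Lefty1 lower, against 14.4% of all genes called. Lrp2, a large endocytic receptor that works beside cubilin, was at 46.6 and 35.3 CPM in Wt and 172 and 105 CPM in Spen-/- cells at day 7 (Spen-/- log2 fold change over day 0, 2.72, adjusted p = 0.00963). None of the list was called between genotypes at day 7. Afp, Ttr, Apoa1, Apob and Hnf4a, secreted proteins and a nuclear receptor of mature visceral endoderm, were at 0 to 3.70 CPM in all 16 libraries and at 0 in both Spen-/- day 7 libraries.

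Definitive endoderm genes stood lower in Spen-/- cells at day 7. Of 10 genes, 9 had an unadjusted p under 0.05 and were lower, against 23.5% of all genes in either direction. The median log2 fold change of the list was -7.45 beside -0.14 over all genes. By edgeR 2 were called, Gsc (adjusted p = 0.00210) and Trh (adjusted p = 0.0229), against 7.11% of all genes. Gsc, a homeobox gene of the organizer, was at 7.66 and 6.07 CPM in Wt and 0 in Spen-/- libraries. Cer1 stood at 32.2 and 36.4 CPM, Lhx1 at 42.1 and 38.0 CPM and Foxa1 at 2.10 and 2.54 CPM in Wt, and all 3 were at 0 in both Spen-/- libraries. A summed level follows the most abundant genes of its list, here with Nodal and Trh among the members, and does not measure a cell type. Within Wt cells the list did not rise on differentiation. Its summed level was 1685 and 592 CPM at day 0 with dox and 325 and 376 CPM at day 7, and of its genes none was called higher and 1 lower, the neuropeptide gene Trh (log2 fold change -2.94). Mesoderm genes had the same direction between genotypes, and 10 of the 11 tested had an unadjusted p under 0.05, against the same 23.5% of all genes. The primitive streak gene T was at 192 and 211 CPM in Wt and at 0 in Spen-/- libraries (adjusted p = 0.000312), and the summed level of the 12 mesoderm genes was 269 and 287 CPM in Wt and 3.60 and 1.39 CPM in Spen-/- cells, after 9.77 to 35.7 CPM in the 4 dox-treated day 0 libraries. The mesoderm sum thus moved with the Wt day 7 levels of Gata4, Sox17 and Pdgfra. The definitive endoderm sum did so between genotypes at day 7 but not between day 0 and day 7. Foxa2 moved with both sums between genotypes at day 7 only. The dox-treated Wt day 0 library with the highest Foxa2, at 9.67 CPM, held the 1685 CPM of the definitive endoderm list and 35.7 CPM of the mesoderm list. The part of either cell type in the levels of these genes was not tested.

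Trophectoderm genes moved with Gata6 and Sparc, in that both genotypes were higher at day 7. Of 8 genes, 3 were called higher in Wt cells, 3 in Spen-/- cells and 4 over the mean, against 4.57%, 8.33% and 14.4% of all genes called in either direction, and none was called lower. Gata3, a GATA factor of trophectoderm and of other epithelia, was at 0 to 2.31 CPM at day 0 with dox and at 58.3 and 40.1 CPM in Wt and 116 and 146 CPM in Spen-/- cells at day 7 (mean log2 fold change 6.34, adjusted p = 0.000119, edgeR). The keratin gene Krt7 changed by 4.71, Tead4 by 2.99 and Tfap2c by 1.18, of which the Tead4 call was lost when any of 6 of the 8 libraries was left out (adjusted p 0.0624 to 0.148). Of the defining factors, Cdx2, which is also used by posterior mesoderm, was at 16.1 and 14.3 CPM in Wt and at 0 in Spen-/- libraries at day 7, and Elf5 was at 0.337 and 0 CPM in Wt and at 0 in Spen-/- libraries.

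**Figure D3:**
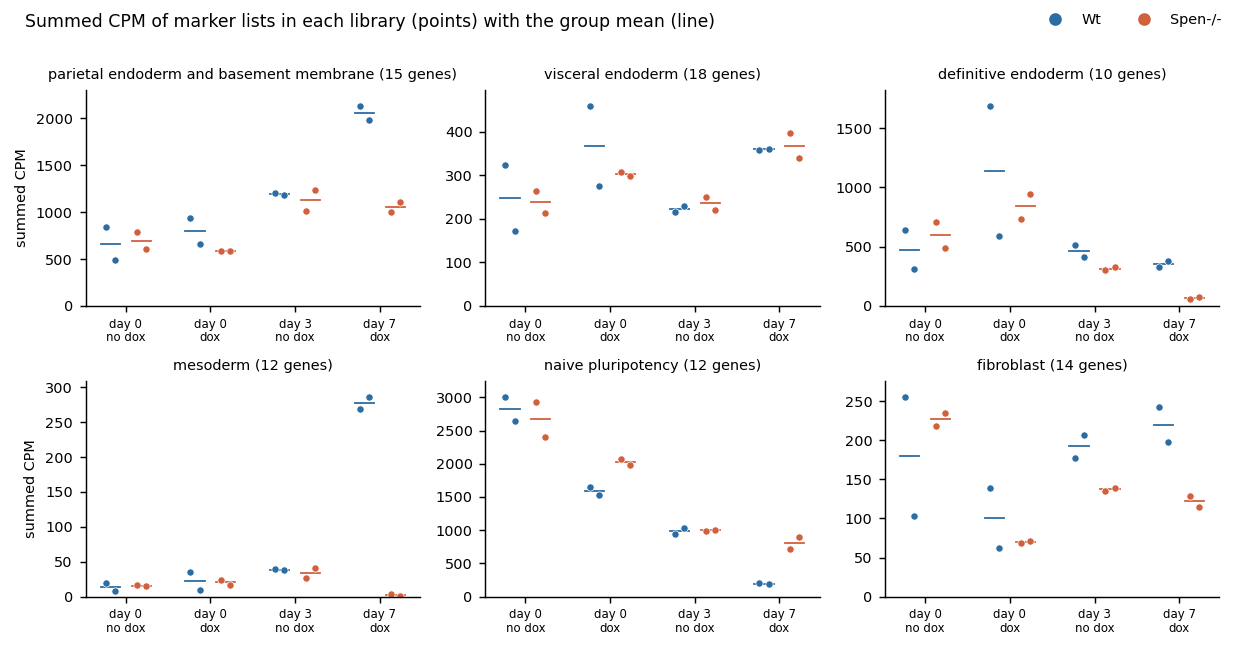
Summed CPM of 6 marker lists in every library (points) with the group mean (line), by day and dox, Wt in blue and Spen-/- in orange. Mesoderm is high only in the 2 Wt day 7 libraries (269 and 287 CPM), definitive endoderm and parietal endoderm sums are lower in Spen-/- than in Wt libraries at day 7, and naive pluripotency genes are at 201 and 191 CPM in Wt and 715 and 902 CPM in Spen-/- libraries. Serpinh1 alone makes up a large part of the parietal endoderm sum and was called lower in Spen-/- cells at day 7.

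For the signals that surround the primitive endoderm decision, transcripts were measured and proteins were not. Fgf4, which epiblast cells secrete, stood at 2.86 and 3.35 CPM in Wt and 157 and 436 CPM in Spen-/- cells at day 7 (log2 fold change 6.57, SE 0.714, adjusted p = 0.000237, edgeR), and its day 7 change differed between genotypes (adjusted p = 0.00331). Within Wt cells Fgf4 fell from day 0 with dox to day 7 (log2 fold change -5.66, adjusted p = 0.000596, edgeR). Pdgfa, the ligand of PDGFRA, rose in both genotypes (1.82 and 1.55 on the log2 scale, adjusted p = 0.0288 and 0.0414), to 55.2 and 39.9 CPM in Wt and 64.2 and 40.0 CPM in Spen-/- cells. Ligand transcript was thus found in both genotypes at day 7 and receptor transcript mainly in Wt cells. Pdgfra was not called between the genotypes there (adjusted p = 0.303, edgeR). The FGF target Dusp6 was lower in Spen-/- cells (188 and 217 against 31.0 and 66.8 CPM, adjusted p = 0.00677), and Pdgfrb, the second PDGF receptor, was at 5.30 and 4.98 CPM in Wt and 0 in Spen-/- libraries (adjusted p = 0.0158). Of the 13 genes of this list, 1 was called higher and 2 lower at day 7 between genotypes, where 7.11% of all genes were called. Nanog, which opposes GATA6, was higher in Spen-/- cells, at 137 and 174 against 41.8 and 54.1 CPM (adjusted p = 0.00748), as were 6 more of 12 naive pluripotency genes, whereas Prdm14 and Pou5f1 were lower and the Gata6 levels of the genotypes overlapped.

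Across the 16 libraries, as a description over points that share groups and depth, Sox17 varied most with Pdgfra and Dab2, Gata4 with Pdgfra and Foxa2, and Gata6 with Sparc. On the log2(CPM + 1) scale Pearson's r was 0.769 for Sox17 with Pdgfra, 0.765 for Sox17 with Dab2 and for Gata4 with Pdgfra, and 0.729 for Gata4 with Foxa2. These genes did not form 1 group, since r was 0.356 for Foxa2 with Dab2, 0.485 for Foxa2 with Pdgfra and 0.487 for Gata4 with Dab2, below the 0.520 of Pdgfra with Lama1 and the 0.518 of Foxa2 with Cubn. Gata6 and Sparc had r = 0.719, and Sox7 and Cubn had -0.325. Of 11028 genes with a mean of at least 5 CPM, the 6 most like the mean of the 10 were Crot (r = 0.902), Itpr1 (0.859), Ifit1 (0.857), B2m (0.854), Fstl1 (0.849) and Wnt5a (0.835), over 16 libraries. Wnt5a, a secreted Wnt ligand, had a mean of 32.6 CPM in Wt day 7 cells and 0 in Spen-/- day 7 cells, and Crot, a peroxisomal carnitine acyltransferase gene, 254 and 56.0 CPM.

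The reads that carry a parental variant give a second view of how these genes were sampled. For Sparc, with 2426 such reads, 52.6% came from Cast (95% Wilson interval 50.6 to 54.6%), and groups lay between 47.0% and 62.2%. Low genes were far from even and changed from library to library. Pdgfra at day 0 without dox had 0 of 24 Cast reads in 1 Wt library, which allows a share of up to 13.8% there. The other Wt library had no allele-specific read, while in Spen-/- cells 1 library had 8 of 8 and the other 0 of 17. At day 7 in Wt cells the 2 libraries held 38 of 107 and 23 of 59 Cast reads, together 36.7% (29.8 to 44.3%). The day 0 libraries with 0 of 24 and 0 of 17 Cast reads had summed fibroblast markers of 256 and 235 CPM. The library with 8 of 8 had 219 CPM. The feeders came from a mouse strain other than the 2 parents of these ESCs. The part of feeder reads in the day 0 shares of Pdgfra, Dab2, Lama1 and Sparc was not tested.

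Lama1 was mostly from Cast at day 0, with 69.2% in Wt and 76.4% in Spen-/- cells without dox, although the Spen-/- libraries differed (56 of 66 and 12 of 23 reads). In Wt cells at day 7 it was at 42.6% (34.4 to 51.3%) over both libraries, which held 41 of 79 (51.9%) and 14 of 50 (28.0%). In Spen-/- cells at day 7 all 35 allele-specific Lama1 reads were from Cast, 14 and 21 in the 2 libraries. Dab2 was at 53.4% in Wt cells at day 7 and at 20.0% (10.9 to 33.8%) in Spen-/- cells, with 0 of 13 and 9 of 32 reads, after 18 of 20 in dox-treated Spen-/- cells at day 0. Intervals cover counting error only, and reads of 1 library without molecular identifiers are not independent molecules. The 2 Spen-/- day 7 libraries are those with the fewest genes detected, whose part in these shares was not tested.

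**Figure D4:**
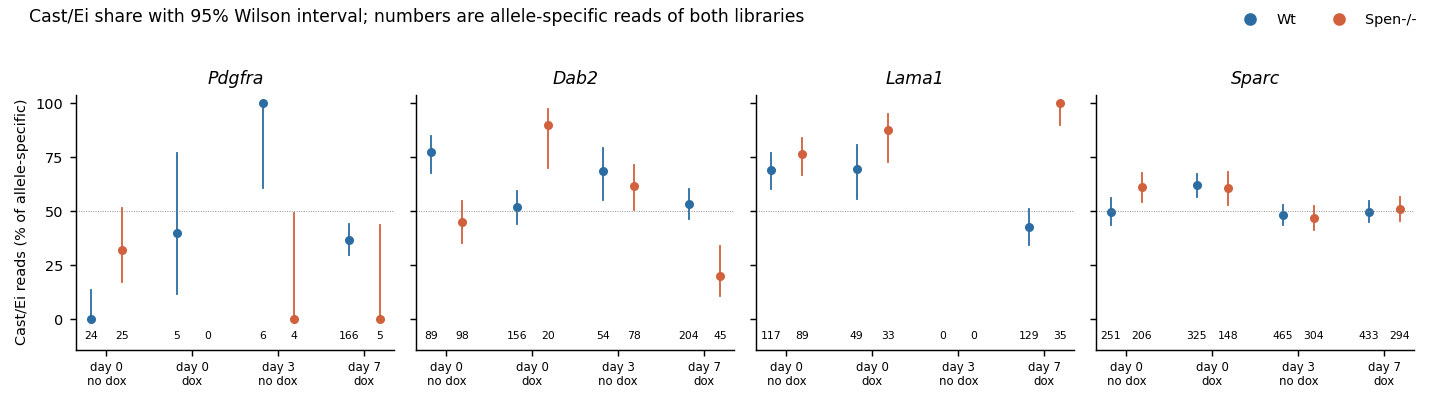
Share of allele-specific reads from Cast/Ei (points) with the 95% Wilson interval (lines) for 4 genes in each group, both libraries summed, with the number of allele-specific reads printed under each point. Sparc stays between 47.0% and 62.2%, whereas Dab2 and Lama1 in Spen-/- cells at day 7 lie at 20.0% and at 35 of 35 reads.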

How the data were processed

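RNA-seq of 16 libraries (2 biological replicates of 8 groups) was analysed from the deposited raw counts per gene, which the authors made without normalization as 3 columns (129/Sv, Cast/Ei and unassigned reads), summed here. Per the labels and the study's methods, Smart-seq2 libraries were sequenced as single-end reads, aligned with HISAT2 2.2.1 to an mm10 genome with masked variants, split by allele with SNPsplit, sorted with SAMtools 1.10 and assigned to genes with HTSeq 0.12.4, with reads that overlap several genes left out. The strand setting and duplicate removal were not given in the sources used here, so reads from genes antisense to Gata6, Sox17, Pdgfra, Dab2 and Cubn cannot be told apart. Lines without a gene held 31.6% to 45.4% of reads and stayed out.

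Low counts were removed with filterByExpr at its default settings (a minimum of 10 reads in enough libraries and 15 in total), and counts were scaled by TMM and tested with edgeR 4.0.16 (R 4.3.3) in a fit without replicate block, over 18150 genes, threshold 0.05, after tests on simulated data. Alternatives included DESeq2 1.42.0. Folds are ratios of pooled CPM. Against a group at 0 they are bounds from a floor of 3 reads over the group. Positions and exon lengths came from GENCODE M21 (GRCm38), promoter windows from RefSeq (GRCm38.p6). Named were all 10 genes, called genes of each list with the largest changes (up to 3 per list and comparison), defining markers, and the 6 genes most alike. Hnf4a, Afp, Amn, Cer1, Lhx1 and other list genes outside that rule were named after their values were seen. Members and lists were chosen with earlier results of these data known. No sample was left out. Replicate numbers were checked for pairing. The 28 correlations of replicate differences had a median of 0.00876 and 1 was over 0.1, so the numbers do not pair the samples.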

Additional observations from a re-analysis of the deposited data

How the results depend on the processing

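Of the 23 changes of single genes with an unadjusted p under 0.05, 284 of 321 values under alternatives kept their direction and their side of the threshold, 16 lost the call, 21 gained it and none reversed. The number of the 10 genes called was as follows where it moved. For Wt day 3 (0 called) it was 1 without a filter on low counts, with allele-specific reads, with DESeq2 and without both Spen-/- day 7 libraries, an alternative chosen after seeing the data, and the gene was Lama1 each time. For Spen-/- day 3 (1) it was 0 with the compared libraries alone. For the mean day 3 change (1) it was 2 without the filter. For Wt day 7 (0) it was 2 without the filter and 1 with the compared libraries alone. For Spen-/- day 7 (1) it was 0 with library size alone, with allele-specific reads and with the compared libraries alone, 2 with DESeq2 and 4 without the filter. For the mean day 7 change (2) it was 4 without the filter, 3 with DESeq2 (Pdgfra the third), 0 with allele-specific reads and 1 with the compared libraries alone. With the compared libraries alone 0 of 14553 genes were called for Spen-/- day 3 and 0 of 13463 for Spen-/- day 7, where 6 and 4 of the 10 were tested, and with allele-specific reads 5 of the 10 were tested in every comparison. Without the filter 3781 of 31692 genes were called for the mean day 7 change. Between genotypes (0 called in each comparison) it was 1 at day 0 with dox and 4 over the mean of 4 conditions without the filter, and at day 7 it was 4 without the filter and 1 with library size alone or DESeq2. For dox at day 0 (0) it was 2 without the filter. When single libraries were left out the count ranged from 0 to 1 for Wt day 3, Spen-/- day 3, Spen-/- day 7 and Spen-/- against Wt at day 7, from 1 to 3 for the mean day 7 change, and did not move elsewhere. DESeq2 called more genes of the whole table in each comparison, for example 1235 against 251 for Wt day 3, 2016 against 829 for Wt day 7 and 3008 against 1291 for Spen-/- against Wt at day 7. The cause of these moves was not tested. Dab2 at day 7 was called between genotypes without Spen-/- day 7 replicate 2 (-2.55, adjusted p = 0.0496, edgeR), Lama1 in Wt cells at day 3 without day 0 replicate 1 (adjusted p = 0.0461) and Pdgfra for the mean day 7 change without Spen-/- day 7 replicate 1 (adjusted p = 0.0486).

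A fit with the replicate block changed no call and left every count as it was (0 in Wt and 1 in Spen-/- cells at day 3, 0 and 1 at day 7, 1 and 2 for the means over genotypes, and 0 between genotypes). The numbers do not pair the samples, so this is only a check.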

Other observations

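Depth and the spread between 2 libraries set the limits here. Of the 10 genes, only Dab2 and Sparc had reads in all 16 libraries, and Gata4 at day 7 rests on 109 and 22 reads in Wt cells. A library at 0 reads for a gene says that it was not detected at this depth. Replicate log2 CPM correlated at 0.832 to 0.958. Genotype and the low number of genes detected cannot be told apart at day 7, and dox, sorting and day of sampling are tied together by the design.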
